A study of Arabidopsis thaliana with 18 samples.

Results

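The comparison described here sets hypocotyls of the hy1 mutant of Arabidopsis thaliana that had moved from darkness to light 24 h earlier (hy1 24 h, 3 libraries) against wild-type hypocotyls of the same time (WT 24 h, 3 libraries). All genes with enough reads were taken, 20955 of the 32833 genes in the count table. The study held 18 poly-A RNA libraries of hypocotyls (the stem of the seedling, below its cotyledons) from hy1 and WT at 0 h (darkness), 12 h and 24 h of light, 3 in each group. Sample titles call the WT libraries mock, so genotypes were read from sample descriptions and column names. A treatment that differed along with genotype cannot be told apart from it. The labels name neither the hy1 allele nor the age, the light or the number of plants in a sample, nor whether replicates were grown apart, and p-values therefore measure only the spread among these libraries, which may be technical.

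Phytochromes are red and far-red photoreceptors that carry a linear tetrapyrrole chromophore. HY1 is the main plastid haem oxygenase, which opens haem to biliverdin, and HY2 then makes the chromophore phytochromobilin. With an impaired HY1, phytochromes of every kind are short of chromophore, while blue-light receptors do not need it. Active phytochrome normally removes PIF factors, the bHLH proteins that drive elongation growth in darkness and shade.

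HY1 itself (AT2G26670; chromosome 2, 11341548 to 11343693, plus strand, TAIR10) had 18.4, 19.4 and 19.1 CPM in the hy1 24 h libraries, against 40.5, 43.2 and 33.9 CPM in WT. CPM are read counts scaled to library size (counts per 1e6 reads). The groups did not overlap, and the log2 fold change, hy1 over WT, was -1.05 ± 0.13 (standard error; adjusted p = 6.5e-05). Each hy1 library thus still held HY1 reads. HO2, a related haem oxygenase, had 12.4, 12.1 and 12.5 CPM in hy1 and 12.3, 12.1 and 14.8 CPM in WT, with -0.08 ± 0.18 (adjusted p = 0.8). For HY2 the value was -0.29 ± 0.23 (adjusted p = 0.4). HO3 and HO4 had no read in any of the 6 libraries.

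Total counts at 24 h ran from 42472977 to 51721733 in hy1 and from 41205294 to 49547963 in WT. WT 24 h replicate 3 stood apart from the other two WT libraries. Across genes it correlated with them at r = 0.9713 and 0.9675 on log2 CPM, where those 2 correlated at 0.99 and the hy1 libraries with each other at 0.9902 to 0.9906, a description over genes that are not independent. Short transcripts, with more than 400 and up to 800 bases of exon, took 1.83% of its counts, against 2.74% and 2.86% in WT replicates 1 and 2 and 2.37% to 2.61% in hy1. Its photosystem genes lay lower than in the other WT libraries, with a median log2 difference of -0.97, and its aquaporins lay lower as well (-0.57). Counts of list members at 24 h are therefore also given without WT 24 h replicate 3. In hy1 24 h replicate 1, plastid and mitochondrial genes took 0.00771% and 0.0441% of the counts, the highest shares of the series.

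After 24 h of light, 4279 genes differed between hy1 and WT at an adjusted p under 0.05 (20.4% of those tested), 2173 of them higher in hy1 (10.4%) and 2106 lower (10.1%). With a fold change of at least 2 as well, 809 genes were higher (3.86%) and 345 lower (1.65%). Without WT 24 h replicate 3 the count was 3357 of 21215 genes (15.8%), 1975 higher (9.31%) and 1382 lower (6.51%). Of the genes called with all libraries, 2884 were also called in the same direction without that replicate, 1701 higher (8.12%) and 1183 lower (5.65%). The 3 hy1 and 3 WT values did not overlap for 8526 genes (40.7%). The count was 2529 without hy1 24 h replicate 1 and 2699 without hy1 24 h replicate 2. Fitted to the 6 libraries alone it was 2832, and to those without WT 24 h replicate 3 it was 8021. The 10 largest rises and 10 largest falls named here were taken among genes called with and without that replicate, with a mean of at least 5 CPM in the higher group and no overlap between the groups.

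**Figure D1:**
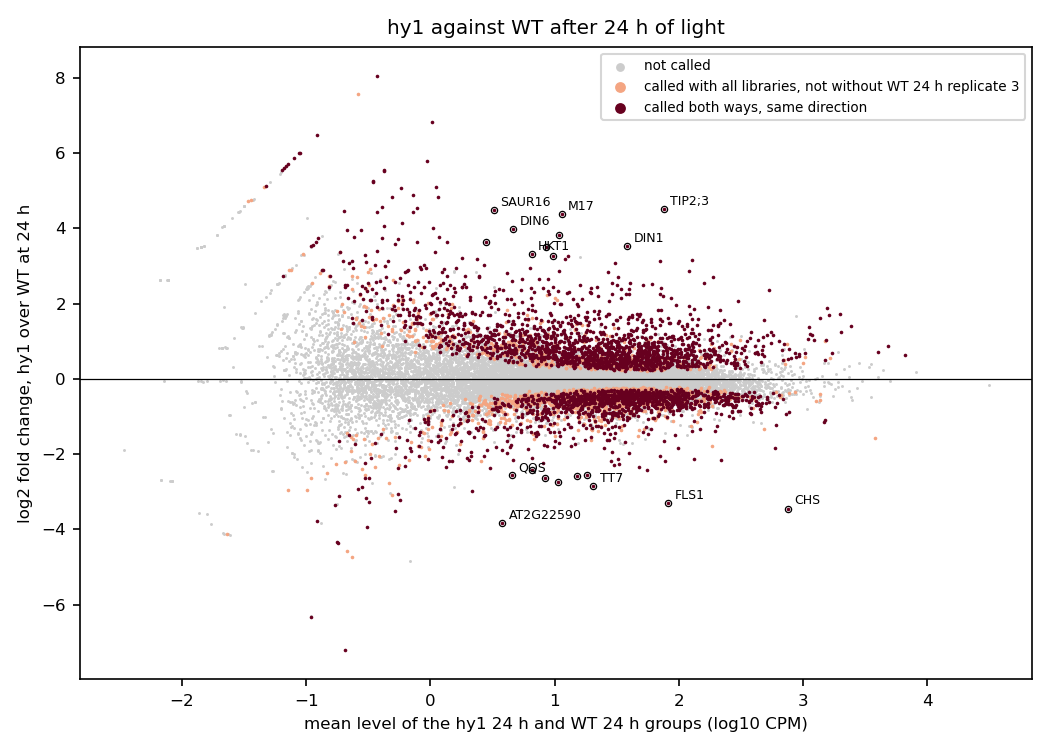
Log2 fold change of hy1 over WT at 24 h (vertical axis) against the mean level of the groups (horizontal axis, log10 CPM), 1 point a gene; colours give the call with and without WT 24 h replicate 3, circles mark the 10 largest rises and 10 largest falls, and 15 genes with no read in the 6 libraries are not drawn. Genes called both ways lie on both sides of 0, with TIP2;3 at 4.52 and AT2G22590 at -3.84 as the outermost circled ones.

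Genes known to act downstream of phytochromes and PIFs were mostly higher in hy1. Of 20 tested members of the PIF and shade response list, 15 rose and 1 fell, where 10.4% and 10.1% of all genes did, and the median log2 fold change was 0.90 against -0.04 over all genes. Without WT 24 h replicate 3 the counts were also 15 and 1, with a median of 1.08. Some members also belong to the light signalling, auxin response, auxin synthesis or wall loosening lists below, so these lists are not independent. HFR1, an atypical bHLH protein that binds and inhibits PIFs, had 67.4, 69.1 and 61.0 CPM in hy1 and 10.8, 11.1 and 19.8 CPM in WT. Its lowest hy1 library was above the highest WT library, which was replicate 3, and it rose by 2.25 ± 0.22 (adjusted p = 6.2e-06; 2.62 without that replicate). BBX28, a B-box protein that restrains the light factor HY5, had 44.1, 44.2 and 40.4 CPM in hy1 and 16.9, 15.3 and 14.4 CPM in WT (1.47 ± 0.10, adjusted p = 5.2e-07). HAT2, a class II HD-Zip factor of shade and auxin responses, rose by 0.80 ± 0.10, and the wall enzyme gene XTH15 by 1.22 ± 0.18. The single member that fell was XTH33 (-1.003), named after its value was seen.

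Among 38 tested light signalling factors, 9 rose and 10 fell, and without WT 24 h replicate 3 the counts were 11 and 8. PIF7, the bHLH factor of the shade response, had 1.86, 3.76 and 2.93 CPM in hy1 and 12.4, 11.5 and 16.2 CPM in WT, so that every hy1 library was below every WT library. It fell by 2.23 ± 0.23 (adjusted p = 1e-05). PKS1, a phytochrome-binding protein of phototropism, fell by 0.97 ± 0.11 (adjusted p = 1.8e-05).

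Photoreceptor genes moved in both directions. Of 14 tested, 5 rose and 2 fell, and without WT 24 h replicate 3 the counts were 2 and 2; the 5 became 2 without hy1 replicate 1 or 2 and 3 without WT replicate 1. FKF1, a blue-light-sensing F-box protein of the clock and flowering pathway, had 10.6, 11.9 and 9.17 CPM in hy1 and 3.01, 2.63 and 1.48 CPM in WT (2.15 ± 0.24, adjusted p = 2.5e-05). PHYA, the far-red receptor, had 266, 243 and 222 CPM in hy1 and 159, 157 and 122 CPM in WT (0.74 ± 0.16, adjusted p = 0.0046). CRY3, a cryptochrome of the DASH type, fell by 0.98 ± 0.15, and PHYD, a phytochrome related to PHYB, fell by 0.36 ± 0.08 (adjusted p = 0.0051).

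Auxin response genes formed one of the most shifted lists. These genes (Aux/IAA repressors, SAUR growth proteins and GH3 conjugating enzymes) are induced within minutes to hours of an auxin signal. Of 52 tested, 31 rose and 1 fell, a count of 30 and 1 if WT 24 h replicate 3 was left out. The median was 1.09 (1.04 without that replicate). Leaving out any other 24 h library gave 27 to 31 members higher.

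SAUR16 had 6.12, 4.64 and 7.95 CPM in hy1, against 0.468, 0.149 and 0.191 CPM in WT. The lowest hy1 library was far above the highest WT library, and the gene rose by 4.48 ± 0.42 (adjusted p = 4.7e-06). GH3.3, which joins auxin to amino acids and so removes it, had 66.0, 46.0 and 74.5 CPM in hy1 and 14.8, 11.9 and 12.1 CPM in WT (2.26 ± 0.22, adjusted p = 7e-06). GH3.5, of the same enzyme family, had 53.6, 61.9 and 62.0 CPM in hy1 and 22.6, 20.5 and 28.5 CPM in WT (1.31 ± 0.12, adjusted p = 4.3e-06). SAUR23 was nearly silent in WT, with 70, 72 and 108 reads in hy1 and 4, 0 and 0 reads in WT (adjusted p = 3.5e-05). SAUR23 has close relatives in the genome, so the share of reads assigned to it is uncertain.

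The 250 bases before the start of GH3.3 are shown because GH3.3 rose and its window holds both a PIF-type and an auxin-type motif. Capitals mark every match to CACGTG (G-box), CACATG (PBE-box), TGTCTC (auxin response element) or AATATCT (evening element core), searched on both strands; the matches in the printed windows do not overlap. The sequences here and below were read from RefSeq's TAIR10.1 genome at the positions of the count table, 5′ to 3′ on the gene's strand. GH3.3 (chr2:9866563-9866812, minus strand) holds a PBE-box 172 and an auxin response element 116 bases before the start.
GH3.3: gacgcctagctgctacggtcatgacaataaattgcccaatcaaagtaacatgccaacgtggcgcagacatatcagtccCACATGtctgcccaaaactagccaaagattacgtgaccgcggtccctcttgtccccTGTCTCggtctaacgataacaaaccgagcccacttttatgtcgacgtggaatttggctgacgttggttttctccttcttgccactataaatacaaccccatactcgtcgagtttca
Of the 52 auxin response genes, 42.3% had a PBE-box in this window and 32.7% an auxin response element, where 11% and 10.6% of the 20886 windows of tested nuclear genes did. Among genes called higher at 24 h the shares were 14% and 10.4%, and among those called lower 10.7% and 11.3%. A match is a run of letters and not a shown binding site.

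Genes that make or move auxin shifted less. Of 29 tested, 6 rose and 2 fell (4 and 1 without WT 24 h replicate 3, 3 and 1 without hy1 replicate 1), with a median of 0.14. CYP79B3, a tryptophan-using enzyme of auxin and indole glucosinolate synthesis, had 172, 156 and 173 CPM in hy1 and 101, 91.0 and 71.1 CPM in WT (0.93 ± 0.11, adjusted p = 4.8e-05). YUC2, a flavin monooxygenase of auxin synthesis, rose by 0.94 ± 0.16, and PIN4, an auxin exporter, fell by 0.69 ± 0.16 (adjusted p = 0.0065).

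Other growth hormones showed smaller lists of changes. Of 23 brassinosteroid genes 8 rose and 1 fell (7 and 1 without WT 24 h replicate 3, 5 and 1 without hy1 replicate 1 or WT replicate 1). BR6OX1, an enzyme of the last steps of brassinosteroid synthesis, was low, with 0.869, 1.08 and 1.34 CPM in hy1 and 0.244, 0.0497 and 0.143 CPM in WT (2.84 ± 0.36, adjusted p = 7.7e-05). PRE1, a small helix-loop-helix protein that promotes elongation, had 44, 48 and 62 reads in hy1 and 0, 4 and 0 reads in WT (adjusted p = 7.7e-05). Its antagonist IBH1 rose as well (0.87 ± 0.14), while CYP90D1, another synthesis enzyme, fell by 0.96 ± 0.14.

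Of 26 gibberellin genes 7 rose and 3 fell (4 and 2 without WT 24 h replicate 3, and 1 lower without hy1 replicate 2 or 3). GA20OX2, a synthesis enzyme, had 5.16, 4.95 and 4.42 CPM in hy1 and 1.34, 1.19 and 1.000 CPM in WT (2.03 ± 0.19, adjusted p = 4.1e-06). GA3OX2, which makes the active hormone, went the other way, with 4.82, 5.18 and 5.42 CPM in hy1 and 12.7, 15.3 and 22.0 CPM in WT (-1.70 ± 0.24, adjusted p = 0.00018). GA2OX1, an inactivating oxidase, rose by 1.797 ± 0.38 (adjusted p = 0.0039), and the DELLA repressor GAI by 0.52 ± 0.13 (adjusted p = 0.011).

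Of 26 abscisic acid genes 8 rose and 3 fell (6 and 3 without WT 24 h replicate 3, and 1 lower without hy1 replicate 2 or WT replicate 1 or 2). ABF1, a bZIP factor of the pathway, had 28.1, 27.8 and 25.5 CPM in hy1 and 9.65, 11.3 and 9.19 CPM in WT (1.43 ± 0.13, adjusted p = 4e-06). NCED3, the stress-induced synthesis enzyme, rose by 1.999 ± 0.27, and the inhibitory phosphatases HAI1 and HAB1 by 1.96 ± 0.32 and 0.83 ± 0.15.

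Ethylene, cytokinin, jasmonate and salicylic acid lists lay near the background or below it. In the ethylene list 3 of 26 rose and 4 fell (3 and 2 without WT 24 h replicate 3), and with 1 library of the 6 left out 2 or 3 rose and 1 to 3 fell. ACS5, a synthesis enzyme, had 16, 10 and 8 reads in hy1 and none in the 3 WT libraries. With WT together set at a floor of 3 counts, ACS5 was 10.8-fold higher in hy1. That floor takes counts as independent, which the mates of a fragment are not, so 10.8 is not a firm lower bound. ACO1, which makes ethylene itself, fell by 0.79 ± 0.17 (adjusted p = 0.0049). In the cytokinin list 4 of 29 rose and 2 fell (3 and none without WT 24 h replicate 3), among them CKX5, a cytokinin oxidase, at 0.72 ± 0.18. With 1 library of the 6 left out, 1 to 3 cytokinin genes rose and 0 to 2 fell. In the jasmonate list 1 of 32 rose, AOC4 of jasmonate synthesis (0.73 ± 0.13), and 1 fell, where 4 rose and none fell if WT 24 h replicate 3 was left out, and 3 rose and 2 fell if WT 24 h replicate 1 was. In the salicylic acid and defence list none of 17 rose and 2 fell, and without WT 24 h replicate 3, hy1 replicate 1 or hy1 replicate 2 no member was called.

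Genes of aquaporins, the channels that carry water across membranes, were higher where they changed. Of 25 tested aquaporins 12 rose and none fell (10 and none without WT 24 h replicate 3), with a median of 0.92. TIP2;3 (AT5G47450; chromosome 5, 19248249 to 19249622, minus strand), a tonoplast water and ammonia channel, had the largest rise of all genes that met the naming rule. It had 158, 152 and 126 CPM in hy1, against 9.22, 3.75 and 5.96 CPM in WT (4.52 ± 0.38, 22.9-fold, adjusted p = 2.1e-06). TIP1;1, a main tonoplast aquaporin, had 724, 714 and 729 CPM in hy1 and 281, 240.2 and 218 CPM in WT (1.55 ± 0.14). TIP1;2 had 3942, 3575 and 3118 CPM in hy1 and 1339, 1503 and 1158 CPM in WT (1.41 ± 0.15). PIP1;2, a plasma membrane channel, had 2192, 2096 and 1865 CPM in hy1 and 804, 796 and 406 CPM in WT (1.62 ± 0.27), and WT replicate 3 was the lowest of the 6. Summed over the list, aquaporins reached 17030, 16430 and 15200 CPM in hy1 and 8099, 8115 and 5418 CPM in WT. Reads of near-identical aquaporin genes could be divided unevenly, since reads that map to several places were not counted.

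**Figure D2:**
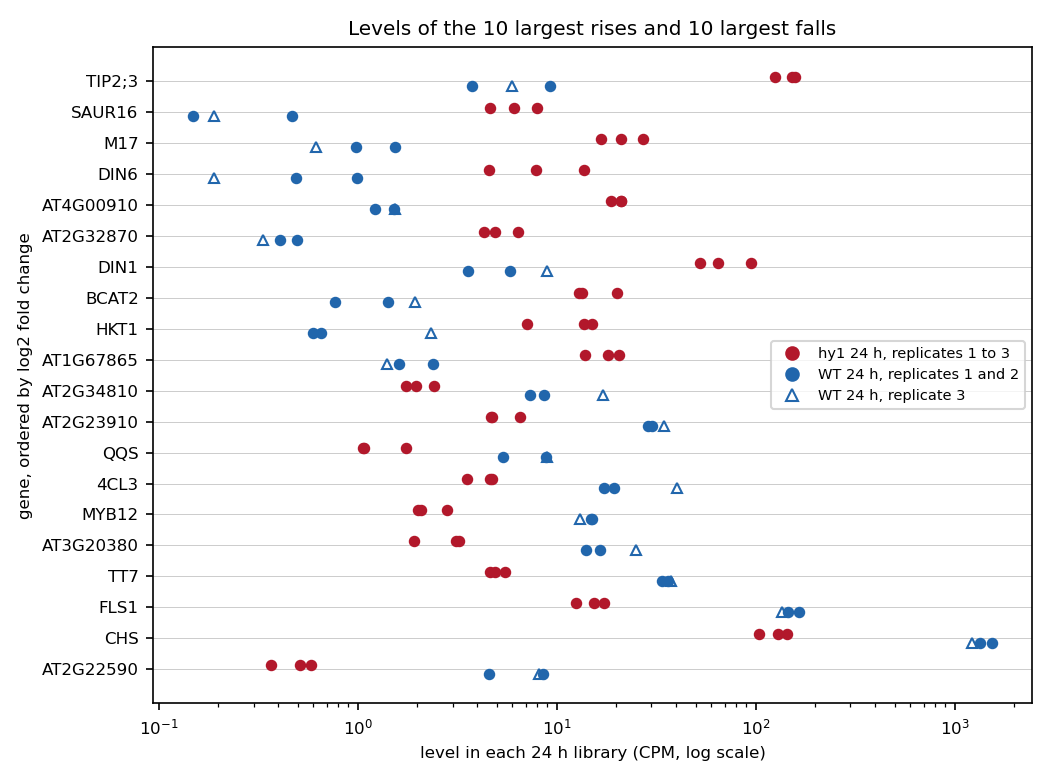
Levels in each of the 6 libraries at 24 h (horizontal axis, CPM on a log scale) of the 10 largest rises and 10 largest falls (rows, ordered by log2 fold change); filled red circles are hy1, filled blue circles WT replicates 1 and 2, open blue triangles WT replicate 3. The hy1 and WT values of each gene do not overlap, as the rule for these genes required.

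Among 32 wall loosening genes (XTH wall-remodelling enzymes and expansins) 11 rose and 6 fell (9 and 6 without WT 24 h replicate 3). XTH19 had 9.62, 7.70 and 8.78 CPM in hy1 and 1.73, 1.64 and 2.95 CPM in WT (2.05 ± 0.30, adjusted p = 0.00026). XTH31 had 898, 817 and 1040 CPM in hy1 and 1970, 2083 and 2096 CPM in WT (-1.16 ± 0.17), and XTH32 had 41.8, 47.2 and 57.9 CPM in hy1 and 135, 137 and 138 CPM in WT (-1.48 ± 0.13). In each case the groups did not overlap.

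The cuticle and wax list had 12 of 31 members higher and none lower (10 and none without WT 24 h replicate 3). WSD1, a wax ester synthase, was low in both groups at 24 h, with 1.798, 1.62 and 1.54 CPM in hy1 and 0.204, 0.0994 and 0.524 CPM in WT (2.58 ± 0.36, adjusted p = 0.00017). KCS2, which lengthens fatty acids, rose by 1.77 ± 0.25. LTP3, a lipid transfer protein, had 54.1, 61.1 and 50.8 CPM in hy1 and 11.5, 18.4 and 7.34 CPM in WT (2.16 ± 0.37, adjusted p = 0.00093).

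Clock genes were called far more often than genes at large. Of 31 tested, 16 rose and 7 fell (16 and 8 without WT 24 h replicate 3). PRR9, a pseudo-response regulator expressed in the morning, had 22.1, 21.8 and 25.3 CPM in hy1 and 6.17, 4.28 and 5.41 CPM in WT (2.12 ± 0.18, adjusted p = 2.5e-06). LNK3, a clock-controlled gene of the LNK family of coactivators, had 25.0, 24.1 and 23.5 CPM in hy1 and 6.72, 6.41 and 5.03 CPM in WT (1.998 ± 0.17), and CDF3, a DOF factor, had 73.0, 76.2 and 73.5 CPM in hy1 and 26.9, 23.0 and 27.9 CPM in WT (1.52 ± 0.11). LUX, a DNA-binding part of the evening complex, went the other way, with 21.9, 23.9 and 19.8 CPM in hy1 and 51.2, 52.1 and 48.8 CPM in WT (-1.21 ± 0.10, adjusted p = 2.1e-06). All groups were sampled at fixed hours of light, so a shift in phase and a change in level cannot be told apart at a single time.

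The windows before PRR9 (chr2:19232357-19232606, plus strand) and LUX (chr3:17182792-17183041, plus strand) are shown because these clock genes, of opposite direction, both hold a G-box and evening element cores. PRR9 holds 2 G-boxes, 1 PBE-box and 2 evening element cores, and LUX 1 G-box and 2 evening element cores.
PRR9: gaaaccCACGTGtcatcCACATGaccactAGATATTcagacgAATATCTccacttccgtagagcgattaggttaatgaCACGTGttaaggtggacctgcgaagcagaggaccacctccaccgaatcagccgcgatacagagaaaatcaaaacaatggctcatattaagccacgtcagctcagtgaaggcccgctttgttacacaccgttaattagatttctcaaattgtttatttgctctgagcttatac
LUX: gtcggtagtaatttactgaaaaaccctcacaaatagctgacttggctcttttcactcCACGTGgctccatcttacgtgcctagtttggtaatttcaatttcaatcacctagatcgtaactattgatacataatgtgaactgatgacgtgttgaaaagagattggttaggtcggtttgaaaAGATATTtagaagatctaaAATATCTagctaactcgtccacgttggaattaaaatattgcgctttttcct
Of the 31 clock genes, 32.3% had a G-box and 45.2% an evening element core in this window, against 7.25% and 10.1% of all windows.

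Of the lists with at least 10 tested members, flavonoid synthesis had the lowest median. Flavonoids are light-induced sunscreen and pigment compounds made from phenylalanine through the phenylpropanoid pathway. Of 24 tested genes 10 fell and 1 rose (9 and 1 without WT 24 h replicate 3), with a median of -1.21. CHS (AT5G13930; chromosome 5, 4488476 to 4490264, plus strand), chalcone synthase and the first step of the pathway, had 104, 144 and 129.5 CPM in hy1, against 1343, 1544 and 1230 CPM in WT. Every hy1 library was below every WT library, and CHS fell by 3.45 ± 0.29 (10.9-fold lower, adjusted p = 2.1e-06). FLS1, the flavonol synthase, had 12.6, 17.2 and 15.5 CPM in hy1 and 146, 164 and 136 CPM in WT (-3.30 ± 0.21, adjusted p = 3.1e-07). TT7, the flavonoid hydroxylase, had 4.88, 4.64 and 5.51 CPM in hy1 and 34.0, 36.2 and 37.7 CPM in WT (-2.84 ± 0.21). MYB12, the activator of flavonol genes, had 2.08, 2.004 and 2.81 CPM in hy1 and 14.8, 15.0 and 13.2 CPM in WT (-2.64 ± 0.22). The single member that rose was MYBL2, a repressor of anthocyanin synthesis (2.45), named after its value was seen.

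Called genes of the entry pathway were lower as well. Of 21 phenylpropanoid and lignin genes 8 fell and none rose (4 and none without hy1 replicate 2, and 5 and none without WT replicate 1 or 3 or hy1 replicate 1 or 3). The ligase gene 4CL3 had 3.56, 4.75 and 4.61 CPM in hy1 and 17.3, 19.4 and 40.4 CPM in WT (-2.58 ± 0.40), and WT replicate 3 was the highest of the 6. PAL1, which removes ammonia from phenylalanine, had 452, 401 and 412 CPM in hy1 and 682, 643 and 598 CPM in WT (-0.60 ± 0.13, adjusted p = 0.0052). CAD4, of lignin alcohol synthesis, fell by 0.67 ± 0.14, and the hydroxylase FAH1 fell by 0.83 ± 0.20. AT2G22590, annotated as a UDP-glycosyltransferase, had the largest fall by the naming rule, with 0.514, 0.585 and 0.369 CPM in hy1 and 4.58, 8.55 and 8.12 CPM in WT (-3.84 ± 0.39, adjusted p = 9.9e-06).

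The windows before CHS (chr5:4488226-4488475, plus strand) and MYB12 (chr2:19476076-19476325, plus strand) are shown because the enzyme and its activator fell together and each holds a G-box, 233 and 118 bases before the start. CHS also holds an evening element core.
CHS: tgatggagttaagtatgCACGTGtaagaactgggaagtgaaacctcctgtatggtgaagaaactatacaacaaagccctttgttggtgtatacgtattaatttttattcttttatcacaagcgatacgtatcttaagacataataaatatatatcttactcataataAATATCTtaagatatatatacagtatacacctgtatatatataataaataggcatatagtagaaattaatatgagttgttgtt
MYB12: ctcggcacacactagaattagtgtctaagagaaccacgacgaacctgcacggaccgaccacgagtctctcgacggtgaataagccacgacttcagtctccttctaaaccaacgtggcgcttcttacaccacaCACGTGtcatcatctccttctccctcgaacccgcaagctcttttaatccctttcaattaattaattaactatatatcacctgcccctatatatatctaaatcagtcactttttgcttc
Of the 24 flavonoid genes 25% had a G-box in this window, against 7.25% of all windows, 6.37% of those of genes called lower and 9.73% of those of genes called higher.

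**Figure D3:**
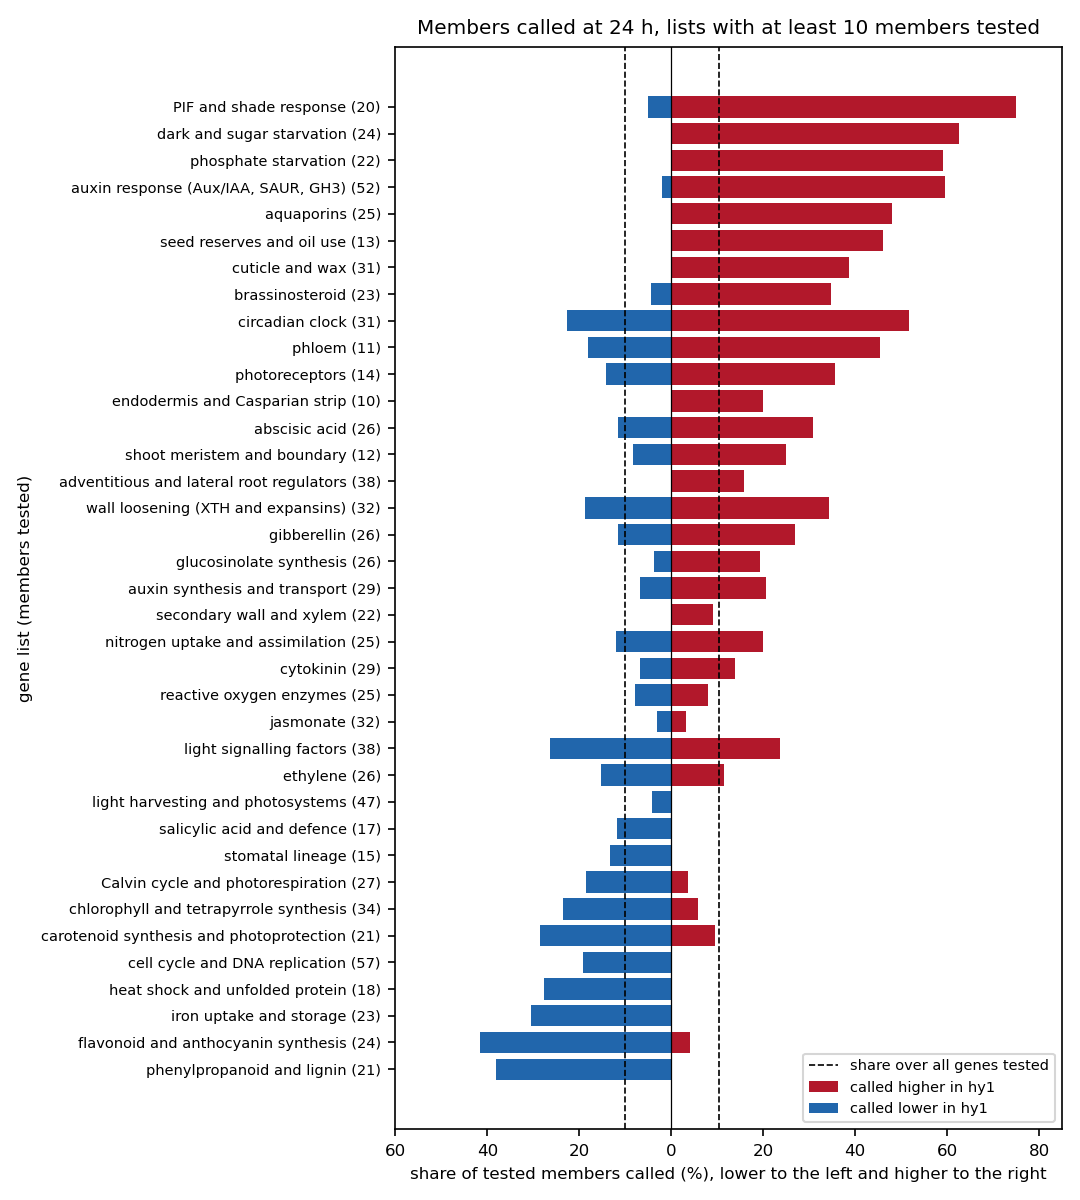
Share of the tested members of each list called higher in hy1 (red, to the right) and lower (blue, to the left) at 24 h, in percent, for lists with at least 10 members tested (number in brackets); dashed lines give the share over all genes tested, 10.4% higher and 10.1% lower. PIF and shade response, starvation and auxin response lists reach farthest to the right, and flavonoid and phenylpropanoid lists farthest to the left.

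Photosynthesis genes differed little in number. Of 47 genes of light harvesting and photosystems 2 fell and none rose (2 and none without WT 24 h replicate 3), below the background of 10.1%, with a median of -0.23 (-0.43 without that replicate). ATPD, a subunit of the plastid ATP synthase, had 71.9, 85.3 and 81.3 CPM in hy1 and 119, 151 and 127 CPM in WT (-0.74 ± 0.17, adjusted p = 0.0068). PSAH2, a photosystem I subunit, was the other (-0.69 ± 0.22), a call lost when any 1 of the 6 libraries was left out (adjusted p = 0.05 to 0.17). Summed over the list, levels were 8464, 10860 and 9816 CPM in hy1 and 11370, 14950 and 7159 CPM in WT. The groups overlapped only through WT replicate 3, and every hy1 sum was below those of the other WT libraries. Of 27 Calvin cycle and photorespiration genes 5 fell and 1 rose (6 and none without WT 24 h replicate 3), and 1 to 2 fell when any other 24 h library was left out. GLDP1, of the photorespiratory glycine decarboxylase, had 252, 298 and 239.9 CPM in hy1 and 472, 537 and 503 CPM in WT (-0.94 ± 0.16, adjusted p = 0.00072).

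Chlorophyll and tetrapyrrole genes fell in 8 of 34 cases and rose in 2 (8 and 2 without WT 24 h replicate 3, 5 and 3 without hy1 replicate 1). HEMB1, which makes porphobilinogen, had 95.0, 102 and 96.0 CPM in hy1 and 119.5, 133 and 126 CPM in WT (-0.36 ± 0.08), and HEMC, the next step, had 77.7, 95.4 and 87.5 CPM in hy1 and 119, 136 and 124 CPM in WT (-0.54 ± 0.12). The plastid sigma factor SIG2 fell by 0.60 ± 0.13, while SIG5, the light- and stress-responsive one, rose by 0.66 ± 0.12. Of 21 carotenoid and photoprotection genes 6 fell and 2 rose, with or without WT 24 h replicate 3. ELIP1, an early light-induced protein of the thylakoid, had 8.77, 16.5 and 27.7 CPM in hy1 and 85.1, 122 and 74.9 CPM in WT (-2.41 ± 0.38, adjusted p = 0.00045). ELIP2 fell by 1.85 ± 0.33 and the carotene hydroxylase LUT5 fell by 0.83 ± 0.16, whereas ABA1, zeaxanthin epoxidase, rose by 1.09 ± 0.13.

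Most genes of the list known to be induced by darkness and low sugar were called higher in hy1 at each time. In darkness 18 of 24 were higher and none lower, where 12.2% of all genes tested were higher and 12.3% lower. At 12 h 17 were higher and none lower, where 14.8% of all genes were higher and 17.7% lower. At 24 h 15 were higher and none lower. The counts at 24 h were the same with or without WT 24 h replicate 3, with a median of 0.83. DIN1 (SEN1), a dark-induced senescence marker, had 94.9, 52.6 and 64.7 CPM in hy1 and 3.58, 5.82 and 8.93 CPM in WT (3.54 ± 0.32, adjusted p = 3.4e-06). DIN6 (ASN1), asparagine synthetase, had 13.8, 7.86 and 4.59 CPM in hy1 and 0.489, 0.994 and 0.191 CPM in WT (3.98 ± 0.47). BCAT2, of branched-chain amino acid breakdown, had 20.13, 13.5 and 12.9 CPM in hy1 and 0.774, 1.42 and 1.95 CPM in WT (3.501 ± 0.31). MCCA and DIN3, of the same breakdown route, rose by 1.83 ± 0.19 and 1.58 ± 0.18. The window before DIN6 (chr3:17441432-17441681, minus strand) is shown as the one printed of a gene of this group, with a G-box 167 bases before the start.
DIN6: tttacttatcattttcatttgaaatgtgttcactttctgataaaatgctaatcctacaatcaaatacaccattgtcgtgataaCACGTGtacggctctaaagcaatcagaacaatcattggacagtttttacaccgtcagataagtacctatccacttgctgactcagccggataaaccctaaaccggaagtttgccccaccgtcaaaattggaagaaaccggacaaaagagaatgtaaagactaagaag
Of the 24 windows of this list 4.17% held a G-box, against 7.25% of all.

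Phosphate starvation genes that were called were also all higher. Of 22 tested 13 rose and none fell, with or without WT 24 h replicate 3. PAP17, an acid phosphatase, had 31.9, 36.3 and 28.0 CPM in hy1 and 8.65, 9.55 and 9.22 CPM in WT (1.81 ± 0.14, adjusted p = 1.1e-06). AT4, a non-coding RNA induced by low phosphate, had 86.8, 77.0 and 99.1 CPM in hy1 and 18.8, 18.4 and 9.67 CPM in WT (2.49 ± 0.25), with WT replicate 3 the lowest. PS2, a phosphatase, rose by 2.65 ± 0.39, and SPX1, a sensor of the phosphate pathway, by 1.16 ± 0.20. Of 25 nitrogen genes 5 rose and 3 fell (5 and 4 without WT 24 h replicate 3). NRT1.5, which loads nitrate into the xylem, had 154, 147 and 149 CPM in hy1 and 44.9, 33.0 and 37.1 CPM in WT (1.97 ± 0.17, adjusted p = 2.1e-06). GDH1, glutamate dehydrogenase, rose by 0.91 ± 0.18, and ASN2, another asparagine synthetase, fell by 1.05 ± 0.18.

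The iron genes that were called were lower. Of 23 tested 7 fell and none rose (5 and none without WT 24 h replicate 3). NAS4, nicotianamine synthase, had 8.52, 7.29 and 10.03 CPM in hy1 and 29.4, 24.7 and 25.9 CPM in WT (-1.63 ± 0.24, adjusted p = 0.00022). OPT3, a phloem iron transporter, had 103, 96.7 and 99.2 CPM in hy1 and 242, 210.1 and 153 CPM in WT (-1.02 ± 0.20), and the ferritin gene FER2 fell by 1.51 ± 0.23. In the heat shock list 5 of 18 fell and none rose, with or without that replicate. BIP2, a chaperone of the endoplasmic reticulum, fell by 0.58 ± 0.10 and HSP70 fell by 0.65 ± 0.13. Among 25 reactive oxygen enzymes 2 rose and 2 fell (2 and 4 without WT 24 h replicate 3). CAT3, a catalase, had 6670, 6280 and 5931 CPM in hy1 and 3423, 3689 and 3137 CPM in WT (0.88 ± 0.14), and SAPX, the stromal ascorbate peroxidase, fell by 0.71 ± 0.09. In the glucosinolate list 5 of 26 rose (6 without WT 24 h replicate 3, 2 without WT replicate 2, 3 without hy1 replicate 1 or 3) and 1 fell, the last being TGG1, a myrosinase (-1.07 ± 0.21).

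Several of the largest changes belonged to no list. M17, a late embryogenesis abundant protein, had 27.2, 16.8 and 21.1 CPM in hy1 and 0.977, 1.54 and 0.619 CPM in WT (4.38 ± 0.43, adjusted p = 6.2e-06). HKT1, a sodium transporter, had 13.7, 7.09 and 15.0 CPM in hy1 and 0.651, 0.597 and 2.33 CPM in WT (3.32 ± 0.49), with 4.27 without WT 24 h replicate 3, the highest WT library. AT4G00910, annotated as an aluminum-activated malate transporter, had 21.1, 18.7 and 21.1 CPM in hy1 and 1.53, 1.22 and 1.55 CPM in WT (3.82 ± 0.25). Further rises were those of AT2G32870, a TRAF-like protein (3.65 ± 0.22), and AT1G67865, annotated as an uncharacterized protein (3.27 ± 0.28). QQS, an Arabidopsis gene of carbon and nitrogen allocation with no known relatives, had 1.07, 1.76 and 1.08 CPM in hy1 and 5.39, 8.85 and 8.91 CPM in WT (-2.57 ± 0.36). AT2G23910, a Rossmann-fold protein, fell by 2.56 ± 0.21, AT3G20380, a TRAF-like protein, fell by 2.75 ± 0.36, and AT2G34810, a berberine-bridge family protein, fell by 2.42 ± 0.45.

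Hypocotyls can form adventitious roots. In a list of regulators of such roots and of lateral ones, 6 of 38 rose while none fell (5 and none without WT 24 h replicate 3), with a median of -0.03. Leaving out any other 24 h library gave 2 or 3 members higher. BBM, an AP2 factor of embryo and root stem cells, had 2.49, 3.26 and 2.49 CPM in hy1 and 0.713, 1.14 and 1.096 CPM in WT (1.48 ± 0.40, adjusted p = 0.016), a call lost without hy1 replicate 2 or WT replicate 1 (adjusted p = 0.059 to 0.063). LBD16, which starts lateral roots, was at 0.54 ± 0.16 (adjusted p = 0.023), lost when any 24 h library but WT replicate 1 was left out (adjusted p = 0.05 to 0.062). ARR1, a cytokinin response factor, was at 0.42 ± 0.12 (adjusted p = 0.022), lost without hy1 replicate 1 or 2 or WT replicate 1 or 2. In the cell cycle list 11 of 57 members fell and none rose, and without WT 24 h replicate 3 2 fell; without hy1 replicate 1, 2 or 3 or WT replicate 1 the counts were 1, 2, 4 and 4. MCM3, a DNA replication helicase subunit, had 32.0, 32.0 and 31.9 CPM in hy1 and 47.2, 39.6 and 48.5 CPM in WT (-0.50 ± 0.11, adjusted p = 0.0049; 0.031 without WT 24 h replicate 3).

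Markers of cell types that a hypocotyl sample can hold were compared next. In bulk tissue, fewer cells of a type and less RNA per cell cannot be told apart. Root hair markers were near 0, with EXP7 at 0 reads in all 6 libraries, the other 3 of 4 markers with a read in at least 1 library, and the sum at 0.09 to 0.138 CPM in hy1 and 0.0497 to 0.326 CPM in WT. Every marker of the lists that follow had reads. Seed reserve markers summed to 0.135 to 0.714 CPM in hy1 and 0.326 to 0.547 CPM in WT. Xylem markers summed to 331 to 445 CPM in hy1 and 349 to 415 CPM in WT, phloem markers to 248 to 309 CPM in hy1 and 236 to 255 CPM in WT, and endodermis markers to 145 to 162 CPM in hy1 and 108 to 211 CPM in WT. Single genes carried parts of these sums, and members differed in direction. The endodermis marker SCR had 58.4 to 62.5 CPM in hy1 and 64.1, 63.0 and 143 CPM in WT. CASP1 of that list had 48.5, 58.7 and 55.1 CPM in hy1 and 46.9, 26.6 and 39.3 CPM in WT. CASP2 and MYB36 were, like CASP1, higher in every hy1 library, SCR was lower in every hy1 library, and the remaining endodermis markers overlapped. The phloem marker SUC2 had 86.4, 85.5 and 70.4 CPM in hy1 and 44.4, 44.7 and 23.6 CPM in WT. APL was lower in every hy1 library, and the groups overlapped for SEOR1, the largest phloem marker, and for CALS7. The 5 photosynthetic mesophyll markers summed to 2740, 3520 and 3120 CPM in hy1 and 3530, 4880 and 2760 CPM in WT, with WT replicate 3 the lowest of its group. Among them LHCB2.1 had 416, 465 and 424 CPM in hy1 and 209, 250.4 and 136 CPM in WT, higher in every hy1 library. RBCS1A went the other way, with 791.5, 1276 and 1084 CPM in hy1 and 1441, 1960 and 1449 CPM in WT. The groups overlapped for LHCB1.1, RCA and CA1. Shoot meristem markers summed to 163 to 172 CPM in hy1 and to 184, 190 and 347 CPM in WT, where replicate 3 was the high one. Most of that sum was KNAT1, with 146, 139.6 and 154 CPM in hy1 and 172, 181 and 341 CPM in WT, while STM, described below, was higher in every hy1 library. Stomatal markers summed to 6.93 to 13.8 CPM in hy1 and 4.55 to 9.77 CPM in WT, and trichome markers to 4.25 to 4.97 CPM in hy1 and 2.88 to 3.88 CPM in WT. The part of cell makeup in the differences above was not tested.

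Within the wider lists of these tissues, 5 of 11 phloem genes rose and 2 fell (5 and 1 without WT 24 h replicate 3). The phloem median was -0.02 and the lowest member was at -0.94, and the members named next are all ones that rose. SULTR2;1, a sulphate transporter of the vasculature, had 50.3, 50.2 and 41.3 CPM in hy1 and 17.2, 15.8 and 15.0 CPM in WT (1.56 ± 0.14, adjusted p = 3.8e-06). SWEET11 and SWEET12, which export sucrose, rose by 1.16 ± 0.14 and 0.83 ± 0.12, and the phloem lectin gene PP2-A1 by 1.05 ± 0.12. Of 12 shoot meristem and boundary genes 3 rose and 1 fell (3 and none without that replicate). STM, a homeobox gene of the meristem, had 16.9, 19.5 and 15.1 CPM in hy1 and 8.63, 6.19 and 3.05 CPM in WT (1.52 ± 0.32, adjusted p = 0.0036), with WT replicate 3 the lowest, and the receptor gene CLV1 rose by 0.63 ± 0.08. Of 13 genes of seed reserves and oil use 6 rose and none fell (3 and none without WT 24 h replicate 3, hy1 replicate 1 or hy1 replicate 2). PCK1, which makes sugar from stored oil, had 786, 728 and 661 CPM in hy1 and 392, 369 and 359 CPM in WT (0.96 ± 0.12, adjusted p = 6.2e-05), and the oil lipase gene SDP1 rose by 0.65 ± 0.11. Secondary wall and xylem genes rose in 2 of 22 cases (2 without WT 24 h replicate 3, 1 without hy1 replicate 1 or 3 or WT replicate 1), endodermis genes in 2 of 10 (2 without WT 24 h replicate 3, 4 without WT replicate 1, none without WT replicate 2) and trichome genes in 1 of 6 with or without WT 24 h replicate 3, that of GL2 (1.07 ± 0.27). Stomatal lineage genes fell in 2 of 15 cases, in 1 without WT 24 h replicate 3, and in 0 to 3 with 1 library of the 6 left out. The median of the stomatal list was 0.43. Over all genes tested 10.4% were called higher and 10.1% lower, so counts this small do not set the xylem, endodermis, trichome and stomatal lists apart.

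**Figure D4:**
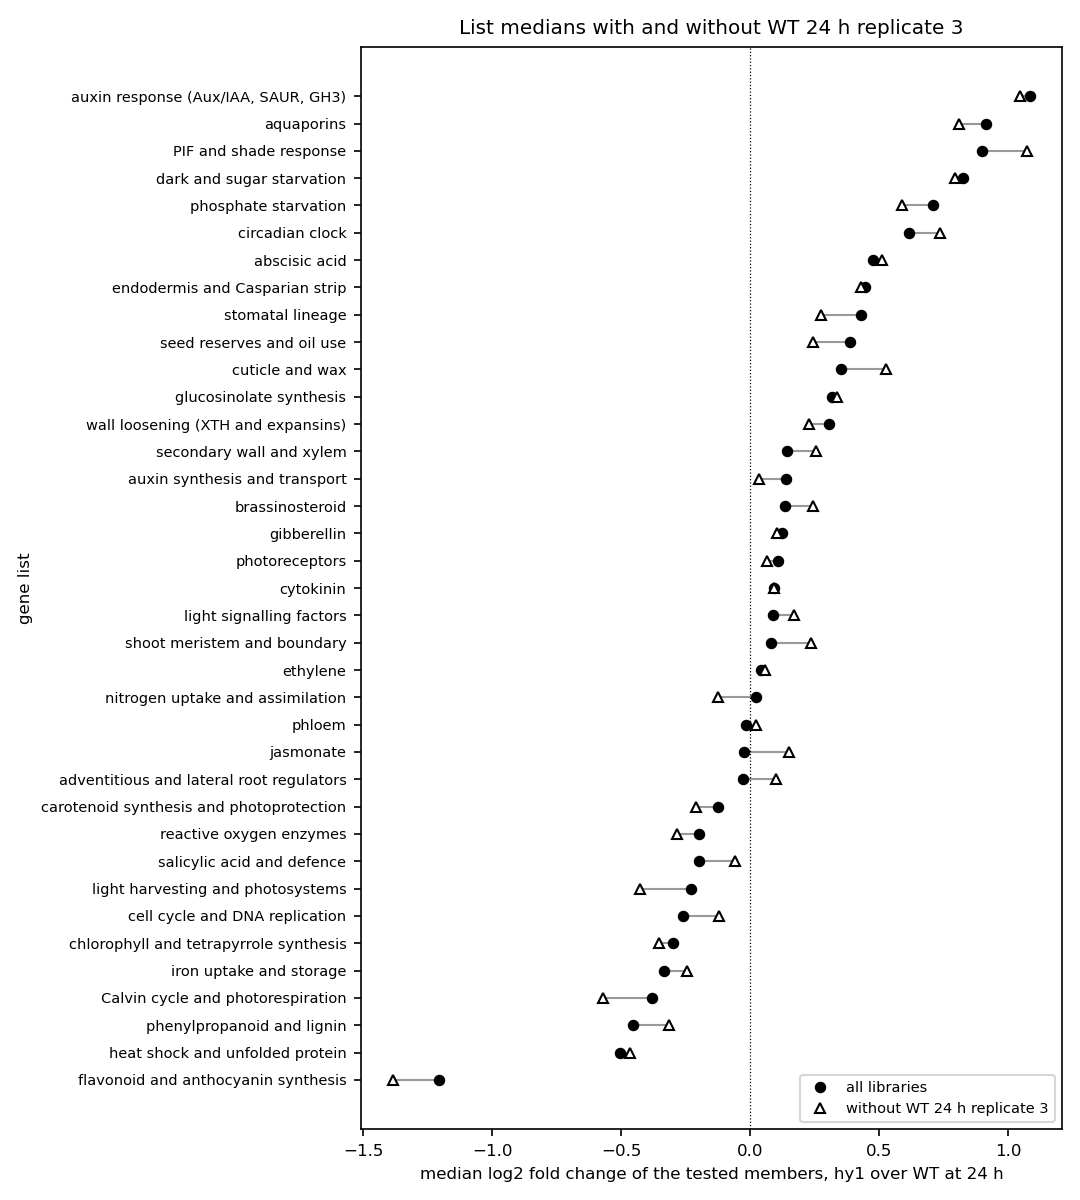
Median log2 fold change, hy1 over WT at 24 h (horizontal axis), of the tested members of each list with at least 10 of them, with all libraries (filled circles) and without WT 24 h replicate 3 (open triangles). Photosystem genes move from -0.23 with all libraries to -0.43 without it, and the medians of the nitrogen, phloem, jasmonate and root regulator lists, all near 0, change sign.

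Whether the genotype difference at 24 h differed from that in darkness was tested directly, with no library shared between the differences. It did for 1803 genes (8.6%), 1078 with a more positive difference at 24 h (5.14%) and 725 with a more negative one (3.46%). Without WT 24 h replicate 3 the count was 1534 of 21215 (7.23%), 1024 more positive (4.83%) and 510 more negative (2.4%). In darkness 5132 genes differed between hy1 and WT (24.5%), and at 12 h 6809 (32.5%). The WT 12 h libraries correlated with each other at only r = 0.9475, 0.9681 and 0.9781 on log2 CPM. Transcripts with more than 400 and up to 800 bases of exon took 2.63%, 1.36% and 1.53% of counts in WT 12 h replicates 1, 2 and 3.

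Auxin response genes differed in sign between darkness and light. In darkness 3 of 52 were higher and 34 lower in hy1, at 12 h 26 were higher and none lower, and at 24 h 31 were higher and 1 lower. The difference between 24 h and 0 h passed the test for 39 members, 38 of them more positive at 24 h. GH3.3 averaged 40.9 ± 12.3 CPM in hy1 and 104 ± 8.06 CPM in WT in darkness (SD, n = 3), 15.2 ± 1.63 CPM in hy1 and 5.57 ± 1.34 CPM in WT at 12 h, and 62.2 ± 14.7 CPM in hy1 and 12.9 ± 1.66 CPM in WT at 24 h. Its difference of differences, 24 h minus 0 h, was 3.61 ± 0.31 (adjusted p = 5.4e-06). The PIF and shade list had 5 members higher and 13 lower in darkness, and 14 members with a more positive difference at 24 h. The cuticle and wax list had 4 higher and 16 lower in darkness, and 16 with a more positive difference at 24 h. Aquaporins had 4 higher and 5 lower in darkness, and 9 with a more positive difference at 24 h. Photosystem genes had none higher and 30 of 47 lower in darkness, and 2 with a more positive difference at 24 h.

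**Figure D5:**
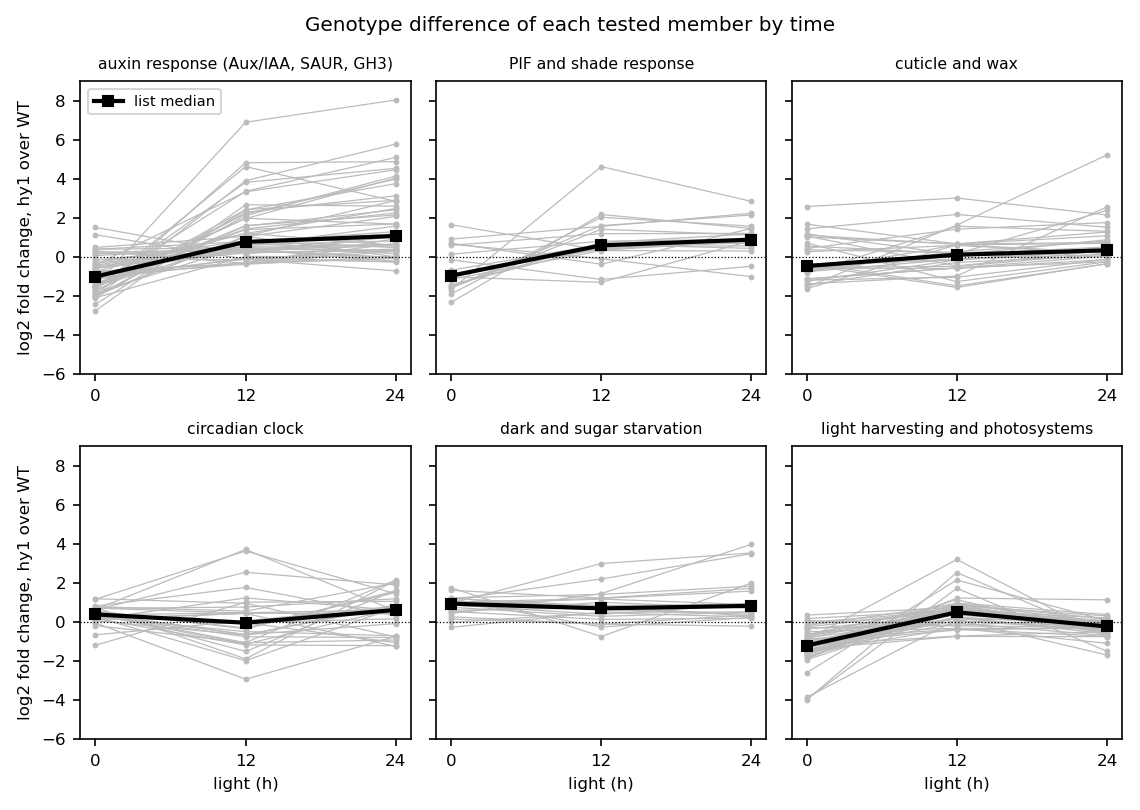
Log2 fold change of hy1 over WT (vertical axis) at 0 h, 12 h and 24 h of light (horizontal axis) for each tested member (grey lines) and the median (black squares) of 6 lists. The auxin response median is -0.995 at 0 h, 0.78 at 12 h and 1.09 at 24 h, and the dark and sugar starvation median is 0.94, 0.70 and 0.83 at those times.

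Between 12 h and 24 h the genotype difference changed for 110 genes (0.525%), 86 more positive at 24 h (0.41%) and 24 more negative (0.115%), and for 188 genes without WT 24 h replicate 3 (0.886%). Without WT 12 h replicate 1 the count was 1790, and without hy1 12 h replicate 3, hy1 24 h replicate 1 or WT 24 h replicate 2 it was 66, 69 and 65. Clock genes were among the 110. PRR9 averaged 1.66 ± 0.193 CPM in hy1 and 6.17 ± 0.394 CPM in WT at 12 h, and 23.1 ± 1.94 CPM in hy1 and 5.28 ± 0.953 CPM in WT at 24 h (SD, n = 3). Its difference was -1.89 ± 0.19 at 12 h and 2.12 ± 0.18 at 24 h, a change of 4.01 ± 0.27 (adjusted p = 2.5e-06). BBX28 had a difference of -0.36 ± 0.10 at 12 h and 1.47 ± 0.10 at 24 h (change 1.83 ± 0.15, adjusted p = 6.9e-06). ABF1 and FKF1 likewise had -0.78 ± 0.13 and -1.05 ± 0.23 at 12 h, each below 0, and were above 0 at 24 h.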

How the data were processed

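Poly-A RNA of 18 hypocotyl libraries was sequenced, and the authors deposited a table of read counts per gene and a table of FPKM. Counts came from featureCounts 2.0.3 per the file headers, with paired-end mates counted singly, strand not used and multi-mapping reads left out, so low counts are often even (75.2% of counts of 1 to 10) and overlapping or antisense genes cannot be told apart. STAR 2.7.8a, StringTie 2.1.3 and HTSeq are named in the submitters' processing notes with no stated role. In the deposited FPKM table each of 408813 values compared was 10 times the FPKM computed from the counts, so the pseudocounts added to it are on that 10-fold scale. Both mates of a fragment were counted and are not independent.

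Genes were kept by edgeR's filterByExpr (20955 of 32833; 6452 had no read) and tested with edgeR 4.0.16 (R 4.3.3), quasi-likelihood with robust dispersion, TMM scaling and 1 mean per group over all 18 libraries. P-values were adjusted by Benjamini-Hochberg over all genes tested, and genes with an adjusted p under 0.05 are called. Differences between genotype differences were tested as contrasts of the same fit. Standard errors are the log2 fold change over the root of the F statistic, and CPM are scaled by TMM library size. Alternatives used DESeq2 1.42.0, limma 3.58.1 on log2(deposited FPKM value + pseudocount of 1 or 0.1) and left-out libraries. Total counts were 38469946 to 59905064 per library.

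Named genes are HY1, HO2, HO3, HO4 and HY2, the 10 largest rises and falls defined in the text, and up to 4 called members per list by smallest adjusted p (where none was called, the 1 with the largest change; in lists with 6 or fewer measured members, any member). XTH33 and MYBL2 were added after their values were seen. Some single cell type markers are also named outside this rule. The 40 lists and their members were chosen with earlier results of these data known. Windows of 250 bases were read from RefSeq's TAIR10.1 genome, since 32532 of 32548 nuclear genes matched had the same start and end in the count table.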

Additional observations from a re-analysis of the deposited data

Results flagged for a closer look

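For 112 genes named above, the genotype difference at 24 h was set against that at 0 h and at 12 h by a contrast of the edgeR quasi-likelihood fit, with Benjamini-Hochberg adjustment over all genes, where every group held at least 4 reads. It differed from that at 0 h for 57 genes and from that at 12 h for 9. The values below are log2 differences, hy1 over WT at 24 h minus the same at the earlier time, and those of genes with few reads depend on the prior count of the fit.

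Named members of the lists differed from darkness in both directions. Auxin response genes gave 3.61 for GH3.3, 2.33 for GH3.5, 4.88 for SAUR16 and 7.86 for SAUR23, and CYP79B3 gave 1.31. In the PIF and shade list BBX28 gave 0.76, HAT2 1.67 and HFR1 1.32. Brassinosteroid genes gave 4.12 for BR6OX1, 0.85 for IBH1 and 7.96 for PRE1, with CYP90D1 at -1.31. Gibberellin genes gave 2.38 for GA20OX2, 5.22 for GA2OX1 and 1.21 for GAI, with GA3OX2 at -1.81. Aquaporins gave 1.61 for PIP1;2, 1.244 for TIP1;1, 1.195 for TIP1;2 and 3.44 for TIP2;3. XTH19 gave 2.28 and XTH31 -0.87, and the wax genes KCS2 and WSD1 gave 1.33 and 3.95.

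Other genes with more positive differences than at 0 h were ABF1 (1.25), CKX5 (1.71), AOC4 (0.83), TGG1 (1.08), NRT1.5 (1.01), SULTR2;1 (0.95), STM (2.11) and GL2 (2.2). Starvation genes gave 2.36 for BCAT2, 2.58 for DIN1 and 3.55 for DIN6. In the dark and sugar starvation list 3 of 24 members were more positive and 3 more negative. Clock genes and FKF1 gave 0.96 for CDF3, 1.22 for LNK3, 1.38 for PRR9, 2.34 for FKF1 and -1.39 for LUX. Of the largest rises, AT2G32870 gave 1.5, AT4G00910 3.04 and M17 4.52.

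Genes with more negative differences than at 0 h were MYB12 (-2.59), TT7 (-2.02), PAL1 (-0.73), ELIP2 (-3.05), FER2 (-1.50), NAS4 (-1.96) and OPT3 (-1.18). CHS, FLS1 and 4CL3 did not pass this test (-1.33 ± 0.69, -1.66 ± 0.65 and -1.76 ± 0.60). In darkness CHS averaged 0.110 CPM in hy1 and 0.481 CPM in WT, and FLS1 0.0701 CPM in hy1 and 0.224 CPM in WT. For 4CL3 the dark means were 1.03 CPM in hy1 and 1.81 CPM in WT. With levels this low in darkness, not passing does not show that the difference was as large at 0 h as at 24 h. In the flavonoid list 2 of 24 members were more positive and 5 more negative, and in the carotenoid list none of 21 was more positive and 2 were more negative. HY1 itself gave -0.66, SIG2 -0.62, PHYD -0.55, PCK1 -0.66 and ACO1 -0.96. AT2G23910 gave -1.40 and AT3G20380 gave -2.68.

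Against 12 h, the differences were 4.01 for PRR9, 1.83 for CDF3, 1.44 for LNK3, 3.201 for FKF1, 1.83 for BBX28, 2.21 for ABF1, 1.46 for SIG5, 3.55 for WSD1 and 2.50 for AT4G00910. All 9 were more positive at 24 h.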

How the results depend on the processing

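The count of 4279 genes at 24 h stayed within 1.5 times itself under other scaling factors (4254 and 4154), no or a stricter filter (3809 and 4282), DESeq2 (5296), limma on FPKM (3834 to 4137) and without organelle genes (4223). It was 2832 with the 6 libraries fitted alone, 2019 at an adjusted p under 0.01, 1154 with a fold of at least 2, 7186 without WT 24 h replicate 3 and WT 12 h replicates 2 and 3, and 8021 with the 24 h groups alone and without WT 24 h replicate 3, a fit added after seeing the data. With 1 library left out it ran from 2529 to 3585. The difference from 0 h held 1803 genes, against 831 at an adjusted p under 0.01, 1132 with a fold of at least 2, 3534 without those 3 WT libraries and 1220 to 1556 with 1 library left out. The difference from 12 h held 110 genes, against 407 by DESeq2, 52 with those groups alone, 48 at an adjusted p under 0.01 and 65 to 1790 with 1 library left out. The cause of these shifts was not tested.

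Values of 5 uncalled genes changed sign. With 1 of the 6 libraries left out, HO2 ran from -0.137 to 0.0457, PRP3 from -5.52 to 0.351, ZFP5 from -0.541 to 0.0217, ETC1 from -0.0702 to 0.476 and ETC3 from -0.766 to 0.13, the changes of sign being without WT 24 h replicate 3 for HO2, PRP3 and ZFP5, hy1 24 h replicate 1 for ETC1 and WT 24 h replicate 2 for ETC3. Without the 3 WT libraries HO2 was at 0.0192 and PRP3 at 0.328, and with the groups alone and without WT 24 h replicate 3 HO2 was at 0.0494 and ZFP5 at 0.024.

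Same-numbered replicates of hy1 and WT at 24 h had deviations correlated at 0.000585, 0.0696 and 0.0544 across genes. With the replicate block 4345 genes were called at 24 h, 1769 for the difference from 0 h and 109 for that from 12 h. A gene with no read in a library, such as HO3, may still be present there at up to 3 counts, a limit for counting error only. The limit takes counts as independent, which the mates of a fragment are not, so it is too low.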
